A study of Mus musculus with 45 samples.

Results

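Genes that bring iron into erythroblasts, move it into mitochondria, store it or release it were examined, with the glycine carrier gene Slc25a38. The measure was chromatin accessibility in red cell precursors with and without Stag2, a subunit of the cohesin ring that folds chromatin into loops. These 10 genes of the 24333 in the deposited table were Tfrc, Steap3, Slc11a2, Slc25a37, Slc25a28, Slc25a38, Slc40a1, Fth1, Ftl1 and Hmox1, named for their role, with earlier results of these data known. In all nuclei 6 of the 10 passed the test as lower in Stag2 KO than in Stag2 WT libraries and none as higher, against 14.2% lower and 29.1% higher over all genes tested. In the quartile with the highest scores 31.4% were lower, and of the 6 it holds Tfrc, Slc25a38 and Slc11a2 only. The largest single difference was at Slc25a37, the mitochondrial iron importer mitoferrin-1, in the most mature nuclei. A gene score sums the ATAC fragments in and around a gene, so it measures accessibility and not RNA or protein.

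The libraries came from Ter119+ erythroblasts of mice, Ter119 being a surface antigen of the red lineage. The Stag2 WT group had 3 libraries and the Stag2 KO group had 3, and both groups had been given pIpC, a compound widely used to switch on gene deletion in mice, with nuclei taken 6 to 8 weeks after its last dose. The labels give neither the age, strain or sex of the mice nor the driver of the deletion, and they do not say that each library came from a separate animal, so that p-values measure the spread between libraries. The series holds 45 samples, and its RNA, CUT&RUN, Hi-C and progenitor libraries were not analysed here. Each nucleus carried one of the authors' classes Early, Int or Late, where Int is read here as intermediate, and a cluster number.

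Developing red cells take up more iron than any other cell type in the body, and nearly all of it goes to heme. Iron bound to transferrin enters through the transferrin receptor, is reduced in the endosome, crosses the endosomal membrane and is imported into mitochondria, where heme is made. Spare iron is held in ferritin, and iron can leave the cell again through ferroportin.

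RefSeq promoter sequences (GRCm38.p6) were at hand for 6 of the 10 genes, namely Tfrc, Steap3, Slc25a38, Slc25a28, Fth1 and Ftl1. Shown here are the windows of up to 250 bases before the start of 3 genes that were lower in KO and, for contrast, of Ftl1, which did not pass the test. They lie at chr16:32608646-32608895 (plus strand, Tfrc), chr1:120271082-120271330 (minus strand, Steap3), chr9:120110132-120110376 (plus strand, Slc25a38) and chr7:45459887-45460136 (minus strand, Ftl1). Each is written 5′ to 3′ on the strand of its gene, and capitals mark every match, on either strand, to 4 motifs of erythroid or stress-responsive factors.
Tfrc: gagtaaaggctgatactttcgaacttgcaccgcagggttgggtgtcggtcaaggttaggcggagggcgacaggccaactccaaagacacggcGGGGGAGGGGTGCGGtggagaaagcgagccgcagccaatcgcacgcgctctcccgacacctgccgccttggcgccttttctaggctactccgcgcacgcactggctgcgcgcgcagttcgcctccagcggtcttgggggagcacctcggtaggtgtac
Steap3: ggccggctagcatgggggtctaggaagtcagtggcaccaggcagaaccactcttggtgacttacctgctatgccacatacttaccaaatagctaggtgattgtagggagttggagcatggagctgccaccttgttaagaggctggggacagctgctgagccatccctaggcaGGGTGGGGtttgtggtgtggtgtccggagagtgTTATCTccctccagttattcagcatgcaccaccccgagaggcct
Slc25a38: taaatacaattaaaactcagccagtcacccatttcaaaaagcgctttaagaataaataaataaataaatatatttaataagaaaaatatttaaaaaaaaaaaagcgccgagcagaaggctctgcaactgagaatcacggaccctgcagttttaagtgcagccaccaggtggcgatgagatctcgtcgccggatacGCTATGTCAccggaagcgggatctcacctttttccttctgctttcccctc
Ftl1: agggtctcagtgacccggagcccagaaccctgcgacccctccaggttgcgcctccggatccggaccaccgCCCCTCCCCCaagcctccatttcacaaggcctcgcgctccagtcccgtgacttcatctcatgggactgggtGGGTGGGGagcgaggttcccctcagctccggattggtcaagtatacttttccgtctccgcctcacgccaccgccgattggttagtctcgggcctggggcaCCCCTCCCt
Searched were the GATA motif of erythroid factors, in the forms AGATAA and AGATAG and the same 2 with T as the first base, a CACCC-type motif of the Krüppel-like factors (CCNCNCCC), the Maf recognition element bound by Bach1 and Nrf2 (TGACNNNGC) and the E-box of the Tal1 kind (CAGATG). Matches may overlap each other, as those of the CACCC-type in Tfrc do. In these windows the GATA motif occurred in 1 of the 6, at Steap3, against 26.5% of 32851 promoter windows. The CACCC-type motif occurred in 3 of 6, at Tfrc, Steap3 and Ftl1, against 45.9% of windows. The Maf element occurred in 1 of 6, at Slc25a38, against 10.2%, and the E-box in 0 of 6, against 14.4%. No motif was held by all 3 of the lower genes shown.

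The 6 libraries held 34073 nuclei, 5819 to 6990 per WT and 4617 to 4925 per KO library, with 46782673 to 66286151 fragments per library. Of the 33320 distinct cell barcodes, 725 occurred in more than 1 library. In the median nucleus 62.2% to 64.7% of fragment ends lay in peaks in WT and 57.4% to 59.9% in KO libraries, so that the groups did not overlap in this measure of library quality. Within Int nuclei these shares overlapped, at 55.3% to 61.9% in WT and 55.1% to 56.2% in KO, and within Late nuclei they did not, at 64.1% to 66.4% and 60.3% to 61.8%. The median Int nucleus had 10121 to 12877 fragments in WT and 13911 to 14998 in KO, with no overlap, and the median Late nucleus 5693 to 6812 and 6043 to 6504, with overlap. The part of the share in peaks in the differences below was not tested. The score of Stag2 itself was 64.2, 65.7 and 65.9 in WT and 61.0, 65.1 and 62.4 in KO, and a score over a whole gene does not show whether an exon is missing.

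In all nuclei, 6 of the 10 iron genes were lower in KO past the threshold (limma, Benjamini-Hochberg adjusted p under 0.05 over all genes) and 0 were higher. Over all 17682 genes tested, 43.3% were past the threshold, 14.2% lower and 29.1% higher in KO. High-scoring genes were lower more often: of the quartile of genes with the highest scores, which holds 7 of the 10, 31.4% were lower. Of the 6 called genes that quartile holds Tfrc, Slc25a38 and Slc11a2, while Slc25a37, Steap3 and Slc40a1 had scores below it. The median log2 fold change was -0.16 over the 10 genes, 0.096 over all genes and -0.071 over that quartile. The 3 KO libraries lay below the 3 WT libraries for 6 of the 10, and for 19.3% of all genes.

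Int and Late nuclei were then compared separately, since they differ in depth and in maturity. In Int nuclei 5 of the 10 were lower and 0 higher, where 19.8% of 19465 genes were past the threshold, 7.1% lower and 12.7% higher. The KO libraries lay below the WT libraries for the same 5, and for 14.4% of all genes. In Late nuclei 5 were lower and 0 higher, where 51.4% of 15886 genes were past the threshold, 18.5% lower and 32.9% higher. There the KO libraries lay below the WT libraries for 8 of the 10 and above them for 1, Hmox1, as they did for 22.7% and 36.8% of all genes. Among genes in the highest quartile of scores 17.8% were lower in Int and 32.8% in Late nuclei. That quartile held 7 of the 10 iron genes in each class. Of those, Tfrc, Steap3, Slc25a38 and Slc11a2 were called in Int nuclei, and only Tfrc and Slc25a38 in Late nuclei. Tfrc, Steap3, Slc25a38 and Slc40a1 were lower in both classes, Slc11a2 in Int and Slc25a37 in Late nuclei. The difference between the classes was tested separately below.

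**Figure D1:**
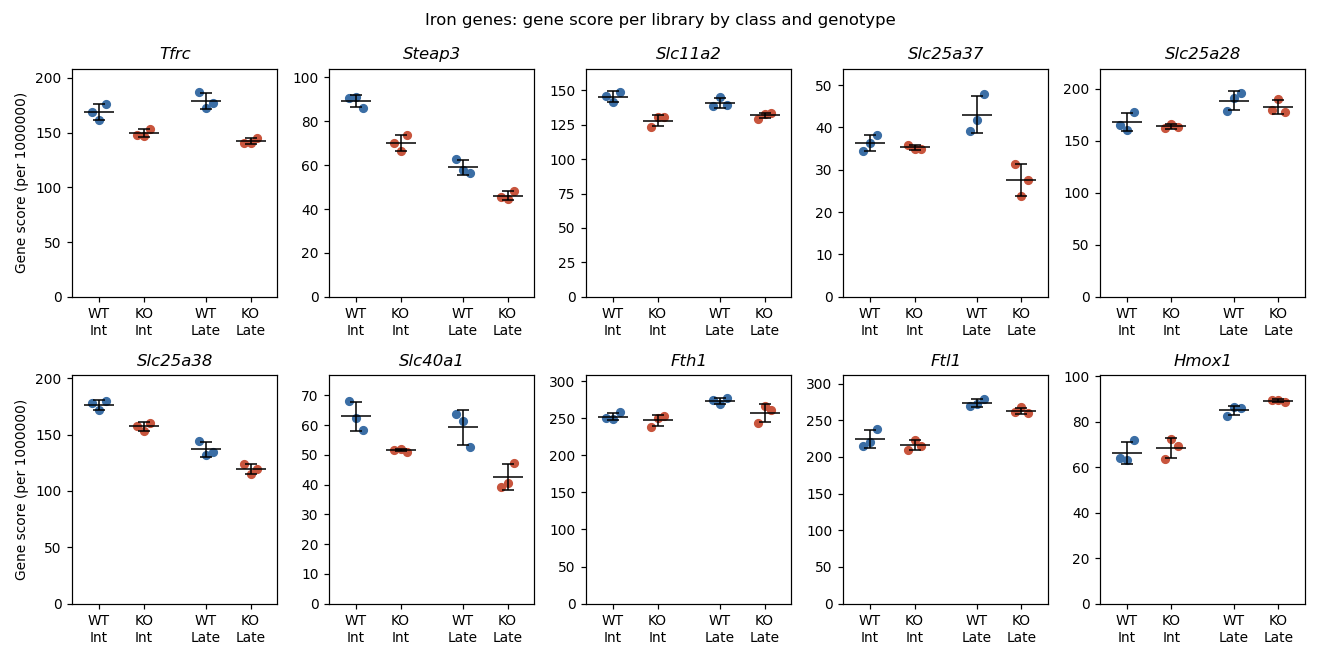
Gene score of each iron gene per library (points; y axis, gene score with each library summing to 1000000 over genes) in Int and Late nuclei of Stag2 WT (blue) and KO (red), with the mean and SD (n = 3). For Slc25a37 the Int groups overlap, while its KO Late libraries lie at 23.9 to 31.5 and its WT Late libraries at 39.3 to 47.8.

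Uptake through the endosome came first. Tfrc (chr16:32608896-32632794, plus strand) encodes the transferrin receptor, the entry gate for iron in erythroblasts. The WT libraries scored 180, 166 and 177 and those of KO 142, 143 and 149, in order of replicate number as everywhere below, which is 17.0% lower on average. Every KO library lay below every WT library, with a shift of -0.27 in log2 score (limma SE 0.044, adjusted p = 0.000171). All differences are KO minus WT of log2(gene score + 1). In Int nuclei it was 169, 161 and 176 in WT and 148, 147 and 153 in KO (log2 fold change -0.17, adjusted p = 0.0107). In Late nuclei the groups lay further apart, at 187, 173 and 177 in WT and 140, 141 and 145 in KO (-0.33, adjusted p = 2.85e-05). The receptor locus was thus lower in both classes, with no overlap in either. Both tested neighbours within 100 kb were not past the threshold, the larger change being -0.080 at Tnk2.

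Steap3 (chr1:120226416-120271082, minus strand) encodes the endosomal ferrireductase that reduces iron after it leaves transferrin. Its WT libraries lay close together in all nuclei, at 72.4, 74.0 and 73.5, and its KO libraries at 59.9, 54.5 and 60.8. The shift was -0.32 in log2 score (limma SE 0.050, adjusted p = 8.89e-05). In Int nuclei the score was 90.7, 91.2 and 85.9 in WT and 70.1, 66.7 and 73.6 in KO (-0.34, adjusted p = 1.77e-05). In Late nuclei it was 62.9, 57.9 and 56.4 against 45.5, 44.5 and 48.4 (-0.35, adjusted p = 0.000285). The KO libraries were lower by 21.5% and 21.9% in the 2 classes, on top of a lower level in Late than in Int nuclei in every library. Neither of 2 tested neighbours was lower, C1ql2 being at 0.19 (adjusted p = 0.163), and 3110009E18Rik was higher at 0.17 (0.0327).

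Slc11a2 (chr15:100387898-100424214, minus strand) encodes DMT1, which carries iron out of the endosome. In all nuclei its score was 141, 142 and 145 in WT and 125, 131 and 132 in KO, a shift of -0.14 in log2 score (limma SE 0.041, adjusted p = 0.0131). The Int values were 146, 141 and 149 in WT and 123, 130 and 130 in KO (-0.18, adjusted p = 0.0062). The Late values, 138, 145 and 139 against 129, 133 and 133, did not overlap either, but the difference of -0.095 did not pass the test (adjusted p = 0.0607). Within 5000 to 15000 fragments the calls changed places, with the Int difference at -0.15 (adjusted p = 0.0522) and the Late one at -0.14 (0.00704). The gene overlaps Gm5475, which had the same direction (-0.18 in all nuclei, adjusted p = 0.0041), and fragments shared by the 2 cannot be told apart. None of the other tested neighbours passed the test, the largest change being 0.26 at Tmprss12 (adjusted p = 0.0839). The Slc11a2 call in all nuclei was lost under quantile normalization (-0.077, adjusted p = 0.105), cyclic loess (-0.067, 0.152), without a variance trend (-0.14, 0.0619), with fragment-weighted means (-0.15, 0.0615) and without KO replicate 1 (-0.11, 0.0670).

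The mitochondrial carriers came next. Slc25a37 (chr14:69241851-69285103, minus strand) encodes mitoferrin-1, the main importer of iron into erythroid mitochondria. In all nuclei its score was 37.4, 38.8 and 42.2 in WT and 33.3, 28.8 and 31.1 in KO, 21.3% lower with no overlap (log2 fold change -0.34, SE 0.072, limma adjusted p = 0.00146). With fragment-weighted means that difference was -0.22 and no longer passed the test (adjusted p = 0.0805). In Int nuclei the groups overlapped, at 34.5, 36.3 and 38.2 in WT and 35.9, 34.97 and 34.96 in KO, a difference of -0.040 (SE 0.074, adjusted p = 0.746). In Late nuclei the WT libraries lay at 39.3, 41.8 and 47.8 and the KO libraries at 31.5, 23.9 and 27.5. That is 35.7% lower in KO, with a shift of -0.62 in log2 score (SE 0.094, adjusted p = 0.000126), the largest of the 10 genes in any fit. Of its 3 tested neighbours within 100 kb none was lower in all nuclei, and Nkx2-6 was higher at 0.35 (adjusted p = 0.0170) from a low score of 6.07 to 7.99.

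The share of nuclei with any signal at Slc25a37 moved in the same way. Among Late nuclei with 5000 to 15000 fragments, 40.5%, 41.3% and 40.0% of WT nuclei had a score above 0, against 32.0%, 29.9% and 33.3% of KO nuclei. Among Int nuclei in that range the shares overlapped, at 37.5%, 39.8% and 43.1% in WT and 41.9%, 37.5% and 38.5% in KO. Within this range of depth a smaller share of KO than of WT nuclei thus had signal at the gene in the Late class, and the Int class did not separate by genotype. Without the limit on fragments the Late shares were 34.1%, 34.1% and 33.2% in WT and 26.2%, 23.7% and 26.3% in KO. The Int shares without that limit went the other way, at 45.3%, 47.1% and 43.7% in WT and 51.3%, 47.9% and 49.7% in KO, where the median KO nucleus also had more fragments. A background for these shares, from cells that lack signal at the gene, was not measured. The drop in Late nuclei with 5000 to 15000 fragments was not particular to Slc25a37. There the KO shares also lay below the WT shares for Tfrc, Steap3, Slc11a2, Slc25a28, Slc40a1 and Fth1. They overlapped for Slc25a38, Ftl1 and Hmox1. For Slc25a28 the shares were 74.5%, 76.9% and 75.4% in WT and 72.0%, 73.4% and 73.0% in KO. Such shares were not computed over all genes.

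Slc25a38 (chr9:120110399-120124321, plus strand) encodes the mitochondrial glycine carrier that feeds the first step of heme synthesis. Its score was 155, 149 and 160 in WT and 140, 132 and 140 in KO over all nuclei, 11.3% lower and without overlap (-0.17, SE 0.043, limma adjusted p = 0.00484). In Int nuclei it was 178, 172 and 180 against 158, 153 and 161 (-0.17, adjusted p = 0.0126), and in Late nuclei 144, 132 and 134 against 124, 115 and 120 (-0.19, adjusted p = 0.00331). Within 5000 to 15000 fragments the Int difference was larger, at -0.27 (adjusted p = 0.000467), and the Late one was -0.18 (0.00616). In all nuclei the call was lost under quantile normalization (-0.10, adjusted p = 0.0637), cyclic loess (-0.10, 0.0766) and fragment-weighted means (-0.13, 0.101). None of its 6 tested neighbours was lower, and Xirp1 was higher by 0.52 (adjusted p = 0.0021).

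Slc25a28 (chr19:43663801-43674881, minus strand) encodes mitoferrin-2, the paralogue of mitoferrin-1 found in many tissues. In all nuclei its score was 173, 174 and 185 in WT and 166, 179 and 170 in KO, and the groups overlapped (-0.047, SE 0.045, limma adjusted p = 0.396). It did not pass the test in Int (-0.033, adjusted p = 0.672) or Late nuclei (-0.045, 0.413). Within 5000 to 15000 fragments the Int difference was 0.049. In Late nuclei the score was 178, 191 and 196 in WT and 180, 190 and 177 in KO, again with overlap. The gene overlaps Mir3084-1, which scored 6822 in WT and 7052 in KO (0.048, limma adjusted p = 0.951), and BC037704 lies 297 bases away. Fragments shared with these genes cannot be told apart. Of the 7 tested neighbours of Slc25a28, 2 were higher, Nkx2-3 by 0.34 (adjusted p = 0.0212). The scores of the 2 mitoferrin genes therefore gave different results under one test, though the difference between the 2 genes was not itself tested.

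Storage and release followed. Fth1 (chr19:9980600-9985111, plus strand) and Ftl1 (chr7:45457944-45459886, minus strand) encode the heavy and light chains of ferritin, the shell in which spare iron is kept. Fth1 was 266, 257 and 266 in WT and 237, 259 and 256 in KO over all nuclei, with overlap (-0.068, SE 0.048, limma adjusted p = 0.248). Ftl1 was 250, 245 and 255 in WT and 229, 247 and 238 in KO, with overlap (-0.073, SE 0.046, adjusted p = 0.197). Neither ferritin gene passed the test in all nuclei. In Late nuclei the KO libraries lay below the WT libraries for both, at 269 to 277 in WT and 243 to 266 in KO for Fth1 (-0.091, adjusted p = 0.0755), and 269 to 279 against 259 to 267 for Ftl1 (-0.059, adjusted p = 0.178). In these 2 cases the libraries were separated in order, but the differences did not pass the test; within 5000 to 15000 fragments both did, at -0.098 (adjusted p = 0.0295) and -0.099 (0.0353). Around Fth1, 3 of 5 tested neighbours were lower, Fads3 by -0.23 (adjusted p = 0.00775), and around Ftl1 3 of 16 were lower and 4 higher, Ppfia3 by 0.49 (9.99e-07).

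Slc40a1 (chr1:45908070-45926519, minus strand) encodes ferroportin, the only known exporter of iron from cells. Its score was 65.1, 61.3 and 55.9 in WT and 45.7, 45.6 and 49.2 in KO over all nuclei, 23.0% lower with no overlap (-0.37, SE 0.059, limma adjusted p = 0.000131), the largest log2 fold change of the 10 in that fit. In Int nuclei it was 68.2, 62.2 and 58.4 against 51.7, 51.9 and 51.1 (-0.28, adjusted p = 0.00117). The Late values were 63.8, 61.2 and 52.6 against 39.2, 40.6 and 47.4 (-0.47, adjusted p = 0.000327), 28.4% lower. The exporter gene thus went the same way as the genes for uptake. The single tested neighbour, Wdr75, changed by -0.061 (adjusted p = 0.473).

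Hmox1 (chr8:75093618-75100593, plus strand) encodes heme oxygenase 1, which breaks heme down and frees its iron. It was the one gene of the 10 whose mean was higher in KO, at 76.1, 74.4 and 77.8 in WT and 74.8, 81.8 and 79.0 in KO, which overlap (0.044, SE 0.046, limma adjusted p = 0.437). In Late nuclei the KO libraries, 89.6, 89.6 and 88.6, lay above the WT libraries, 82.6, 86.6 and 86.0, while the model gave 0.070 (adjusted p = 0.194). That Late difference passed the test as higher in KO under quantile normalization (0.13, adjusted p = 0.0368) and cyclic loess (0.14, 0.0219). In Int nuclei the groups overlapped, at 64.0, 63.1 and 71.8 in WT and 63.9, 72.3 and 69.2 in KO. None of its 3 tested neighbours passed the test, the largest change being 0.076 at Hmgxb4 (adjusted p = 0.370).

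**Figure D2:**
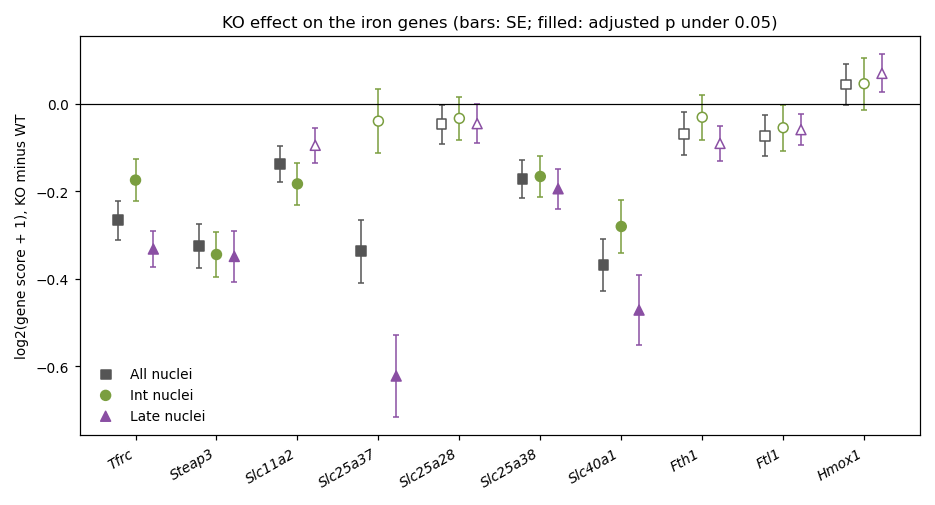
KO minus WT difference of log2(gene score + 1) with its SE for the 10 iron genes in all, Int and Late nuclei; filled symbols passed the limma test at adjusted p under 0.05. Tfrc, Steap3, Slc25a38 and Slc40a1 are filled in all 3 fits, and Slc25a37 in all and Late nuclei only, where it reaches -0.62.

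How the genes differed between Int and Late nuclei was described within each library, with no test, since the classes were drawn from the same nuclei. Over all genes the median Late minus Int difference was -0.15 in WT and -0.15 in KO, and 47% of genes were lower in Late nuclei in all 6 libraries and 26% higher. Steap3 was lower in Late nuclei in all 6 libraries, by a mean of 0.59 on the log2 scale, and so were Slc25a38, by 0.38, and Slc40a1, by 0.18. Hmox1 was higher in Late nuclei in all 6, by a mean of 0.37, as were Ftl1 (0.28), Slc25a28 (0.16) and Fth1 (0.086). So 7 of the 10 went the same way in every library, near the share of all genes that did. Within 5000 to 15000 fragments the count was 5, with Fth1 (-0.014) and Slc25a28 (-0.062) on the lower side in KO, and the Late minus Int difference of Slc40a1 in KO was -0.064 in place of -0.28. There the KO difference was -0.38 in place of -0.59 for Steap3 and 0.16 in place of 0.28 for Ftl1, and the WT difference of Hmox1 was 0.25 in place of 0.36. Slc11a2 was mixed, with 4 of 6 libraries higher in Late nuclei.

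Slc25a37 and Tfrc were the genes of the 10 whose Late minus Int difference was above 0 in all libraries of 1 genotype and below 0 in all of the other. Slc25a37 was higher in Late than in Int nuclei in WT replicates 1, 2 and 3, by 0.18, 0.20 and 0.32 on the log2 scale. In KO replicates 1, 2 and 3 the difference was -0.18, -0.53 and -0.34. Within 5000 to 15000 fragments its mean was 0.34 in WT and -0.15 in KO, in place of 0.23 and -0.35. The direct test of the difference between genotypes gave -0.58 (SE 0.094, unadjusted p = 0.000306, limma adjusted p = 0.060), so that it missed the threshold over 17747 genes, of which 0.158% passed and 3500 had an unadjusted p under 0.05. For Tfrc the WT libraries gave 0.15, 0.10 and 0.011 and the KO libraries -0.075, -0.060 and -0.078 (difference -0.16, SE 0.058, adjusted p = 0.190). This sign pattern, higher in Late in all 3 WT and lower in all 3 KO libraries, was found in 118 genes, or 0.665% of those tested. The reverse pattern was found in a further 89 genes, or 0.501%. None of the 10 genes passed the direct test, and 2 had an unadjusted p under 0.05.

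**Figure D3:**
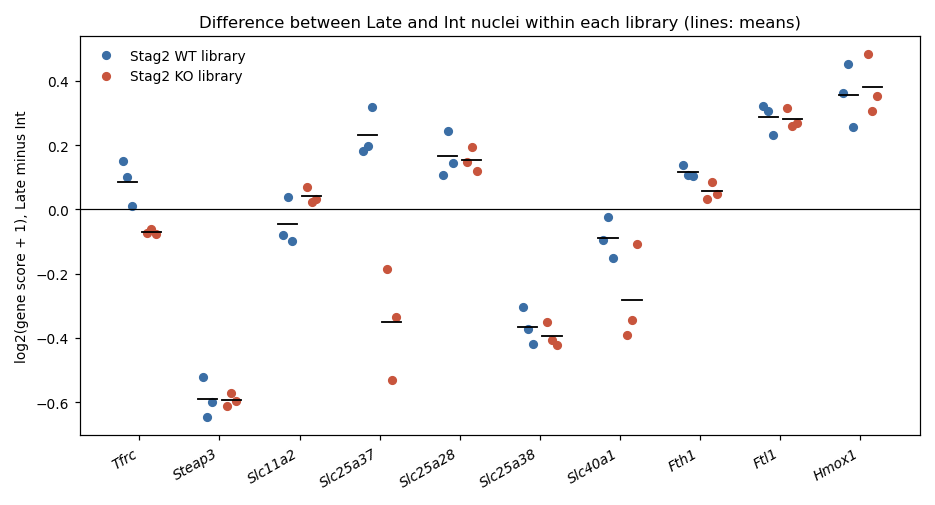
Late minus Int difference of log2(gene score + 1) within each library for the 10 iron genes; points are WT (blue) and KO (red) libraries, lines are means. For Slc25a37 the WT points lie at 0.18 to 0.32 and the KO points at -0.53 to -0.18; for Steap3 all 6 lie between -0.65 and -0.52.

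The direct test at Slc25a37 was sensitive to the settings. Its adjusted p ranged from 0.0097 to 0.226 over the alternatives, and the difference stayed between -0.67 and -0.49. It passed the threshold without WT replicate 3 (limma adjusted p = 0.0442), with a pseudocount of 5 (0.0336) and with a filter at a mean of 20 (0.0112). It also passed under median centring (0.00971), no variance trend (0.0450) and fragment-weighted means (0.0364). In these fits, in that order, 3.55%, 0.642%, 2.78%, 4.07%, 2.42% and 0.418% of all genes passed, against 0.158% in the main fit.

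Levels by cluster show where the scores separate. Most nuclei were in clusters of nearly 1 genotype: C3 was 0.740% KO and C2 was 97.4% KO among mostly Late nuclei. Mixed were C5, of Int nuclei, at 73.0% KO, C7, of mostly Early nuclei, at 50.4%, and the small clusters C1 (138 nuclei, 45.7%) and C4 (143 nuclei, 51.7%). Levels by cluster are given without a test because the clusters were drawn from the same accessibility data. For Slc25a37 the order from high to low was C3 in WT (43.3 ± 4.43, SD, n = 3), C9 in WT (41.9 ± 5.02), C8 in KO (37.6 ± 1.055), C6 in WT (37.1 ± 1.29), C11 in WT (36.0 ± 3.62), C5 in KO (34.9 ± 2.81), C10 in KO (34.3 ± 2.01), C5 in WT (29.4 ± 5.07), C2 in KO (27.6 ± 3.78) and C2 in WT (25.0 ± 3.24). These are the clusters in which all 3 libraries of a genotype had at least 50 nuclei, and neighbours in the order did not differ beyond their spread. The 58 to 68 WT nuclei per library that fell into the mostly KO cluster C2 were low for Slc25a37, with a range of 21.3 to 27.5, like the KO nuclei of that cluster and unlike the WT nuclei of C3.

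The other called genes were ordered differently over the clusters. Tfrc was highest in WT nuclei of C5 (183 ± 14.3) and C3 (180 ± 7.89). It was 142 ± 3.42 in KO nuclei of C2 and 145 ± 3.07 in KO nuclei of C8, and lower still, with a wide spread, in the few WT nuclei of C2 (131 ± 22.7). Steap3 was lowest in C2 (45.6 ± 2.24 in KO, 48.4 ± 3.31 in WT) and highest in C9 in WT (95.4 ± 6.26). In Steap3 the cluster order followed the lower level of Late nuclei as well as genotype. Slc40a1 ran from 67.0 ± 3.39 in WT nuclei of C11 to 42.6 ± 4.89 in KO nuclei of C2. In cluster C5 alone 0 of the 10 genes passed the limma test, as 0.879% of all genes did, with 143 to 261 WT and 520 to 590 KO nuclei per library. The nearest was Steap3 at -0.56 (limma adjusted p = 0.0648). Of the others called in Int nuclei, Tfrc was -0.15 in C5 (-0.17 in all Int nuclei) and Slc11a2 -0.16 (-0.18). Slc25a38 was -0.091 (-0.17) and Slc40a1 -0.085 (-0.28).

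**Figure D4:**
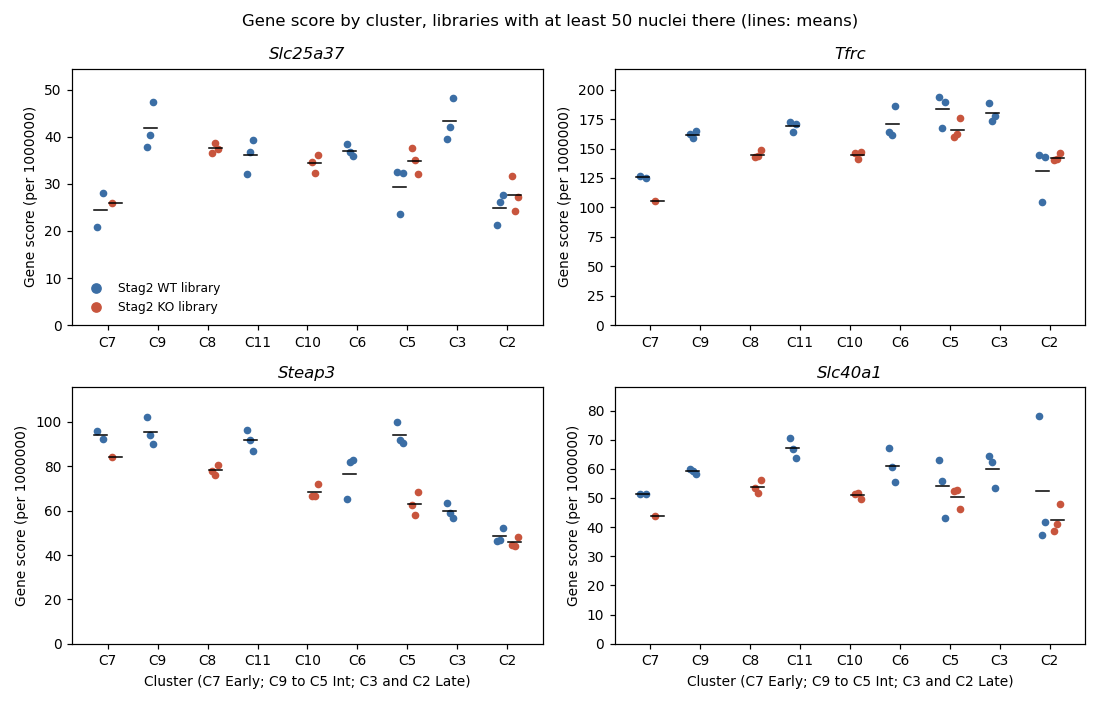
Gene score of Slc25a37, Tfrc, Steap3 and Slc40a1 by cluster in each library with at least 50 nuclei there (points; lines are means), WT in blue and KO in red. Slc25a37 is lowest in C2 and C7, in WT as in KO nuclei of C2, and highest in C3 and C9 of WT.

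The Early class, the least mature nuclei, was too small for a test, with 102, 235 and 20 nuclei in WT and 310, 25 and 16 in KO replicates. In the 3 libraries with at least 50 nuclei, Slc25a37 was 21.2 in WT replicate 1, 28.5 in WT replicate 2 and 26.8 in KO replicate 1. Those values lay below every Int library of either genotype. Tfrc was 131 and 125 in those WT libraries and 107 in KO replicate 1, and Steap3 was 95.2, 93.6 and 83.7. In each of these 3 libraries 9 of the 10 iron genes were lower in Early than in Int nuclei, Steap3 being the exception. The share of all genes lower in Early nuclei was not computed, so this count has no background. The median Early nucleus had 43844, 41018 and 44045.5 fragments in WT replicates 1 and 2 and KO replicate 1. The median Int nucleus of the same libraries had 12877, 12671 and 14532. In the same order, 50.3%, 47.9% and 45.2% of ends lay in peaks in the median Early nucleus, against 55.3%, 56.8% and 55.1% in Int. The part of depth in these differences was not tested.

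The other genes of iron and heme pathways gave the setting for the 10. The 6 lists name 98 gene symbols, of which the table holds 96. In all nuclei 23 of the 85 tested were lower and 20 higher, with a median of -0.063 against 0.096 over all genes, of which 14.2% were lower and 29.1% higher, and 31.4% lower in the quartile with the highest scores. These shares are the background for each list below. In Late nuclei 31 of 80 tested were lower and 17 higher, where 18.5% and 32.9% of all genes were, and in Int nuclei 12 of 89 were lower and 14 higher, where 7.1% and 12.7% were. Cyclic loess left 28 called in all nuclei and fragment-weighted means 15. The pathway genes thus moved both ways.

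In heme synthesis 4 of 12 tested genes were lower and 1 higher in all nuclei, and 6 lower and 1 higher in Late nuclei. Uros, which closes the tetrapyrrole ring, was 182, 165 and 175 in WT and 145, 152 and 158 in KO (-0.20, limma adjusted p = 0.00316), and 3 of its 6 tested neighbours were lower, Bccip by -0.24. Alas1, the housekeeping form of the first enzyme, was the higher one, at 20.5, 21.7 and 19.4 against 27.9, 26.6 and 28.5 (0.41, adjusted p = 0.000831), with 3 of 8 neighbours higher and 1 lower. Its erythroid counterpart Alas2 was lower (-0.15, adjusted p = 0.0118). The 2 forms of the first enzyme thus differed in direction in these scores.

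In the list of iron sensing and ferritin handling, 2 of 12 tested genes were lower and 4 higher. Erfe, which encodes erythroferrone, the hormone by which erythroblasts lower hepcidin, had the largest change of the 85 genes tested. Its score was 29.4, 41.7 and 40.8 in WT and 81.2, 75.1 and 89.1 in KO (1.13, SE 0.095, limma adjusted p = 9.55e-08), with no overlap. It was 1.31 in Int nuclei and 0.89 in Late nuclei. The rise was shared with its surroundings, since 5 of 8 tested neighbours were higher, Hes6 by 0.85. Ncoa4, the receptor that takes ferritin to the lysosome, was 162, 146 and 149 in WT and 127, 134 and 138 in KO (-0.19, adjusted p = 0.00439), with 2 of 5 neighbours lower, Timm23 by -0.26.

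Among the other uptake and export genes, 2 of 11 tested were lower and 3 higher. Lrp1, a receptor of heme bound to hemopexin, was 34.0, 35.4 and 35.1 in WT and 59.5, 58.8 and 54.9 in KO (0.71, limma adjusted p = 4.25e-08), and 7 of its 10 tested neighbours were higher too. Mcoln1, a lysosomal iron channel, was 117, 113 and 114 against 96.2, 99.5 and 109 (-0.17, adjusted p = 0.00731), with 1 of 8 neighbours lower. Iron-sulphur cluster assembly had 6 of 20 genes lower and 3 higher, from Bola3 (193, 177 and 192 against 149, 160 and 159, -0.26, adjusted p = 0.0003) to Fdx1 at 0.48 (adjusted p = 0.00388) from a score of 4.43 to 6.59. Of the tested neighbours of Bola3, 4 of 6 were lower and 2 higher, and of those of Fdx1, 1 of 3 was higher. Fdx1, with a WT mean of 4.43, passed the filter on the mean score only through its KO libraries.

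In heme transport and breakdown 2 of 12 genes were lower and 4 higher. Fam210b, a mitochondrial protein of the heme pathway, was -0.17 (limma adjusted p = 0.0167) and Slc46a1, a carrier of folate and heme, was 0.59 (adjusted p = 0.000469), with 0 of 6 and 2 of 12 neighbours past the threshold. In the list of regulators, which joins heme and oxygen responsive genes with erythroid factors, 7 of 18 were lower and 5 higher. The erythroid factors Tal1, Gata1, Klf1 and Nfe2 were all among the lower, and Gata1 and Klf1 are also erythroid markers below. Tal1, an erythroid factor, was 155, 152 and 142 in WT and 125, 124 and 132 in KO (-0.24, adjusted p = 0.000591), and Hif1a, the hypoxia-inducible factor, was 8.67, 11.98 and 9.77 against 16.8, 15.6 and 14.6 (0.59, adjusted p = 0.00107). For Tal1, 4 of 5 tested neighbours were lower and 1 higher, and for Hif1a both were higher, Snapc1 by 0.44. Among the higher regulators, Egln3 (4.20 in WT, 6.02 in KO) passed the filter at a mean of 5 only through its KO libraries.

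**Figure D5:**
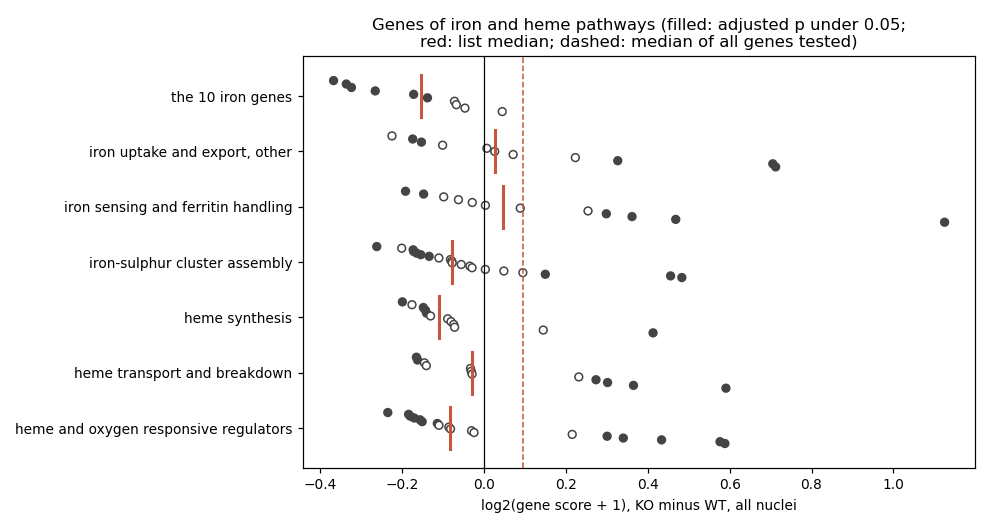
KO minus WT difference of log2(gene score + 1) in all nuclei for the 10 iron genes and the genes of 6 further lists (x axis; each point is a gene, filled if limma adjusted p was under 0.05). The median of the 10 iron genes lies at -0.16 and that of all genes tested, dashed, at 0.096.

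Markers of erythroid and other cells were read from the same fits. In all nuclei the summed scores of macrophage, megakaryocyte and mast or basophil markers overlapped between the genotypes. Those of stem and progenitor, neutrophil and lymphoid markers were higher in KO, and those of erythroid markers lower. Calls as higher in the neutrophil and macrophage lists did not exceed the 29.1% of all genes. Of 11 tested erythroid marker genes, 10 were lower in KO and 0 higher in all nuclei, where 14.2% of all genes were lower and 29.1% higher, with the summed score at 2184 to 2309 in WT and 1944 to 2041 in KO; 6 were lower in Int and 10 in Late nuclei, where 7.1% and 18.5% of all genes were. All sums here are over the tested genes of a list. For the 9 tested of the 14 macrophage markers the sum was 261 to 284 in WT and 274 to 286 in KO, with 2 higher. Most of that sum came from Cd68, at 193 to 212 in WT and 191 to 207 in KO. Stem and progenitor markers summed to 61.2 to 74.4 in WT and 77.8 to 94.2 in KO, with 4 of 7 higher. In Int nuclei these sums overlapped, at 78.3 to 98.8 and 96.1 to 107.4, with 0 of 7 higher. In Late nuclei 5 of 5 tested were higher, where 32.9% of all genes were. Over all genes the Late median log2 fold change was 0.18 with no filter and -0.044 with a filter at a mean of 20. Neutrophil markers summed to 70.3 to 76.8 and 84.5 to 91.3, with 2 of 7 higher. Lymphoid markers summed to 73.2 to 82.1 and 86.1 to 92.3, with 2 of 5 higher, megakaryocyte markers to 272 to 303 and 300.1 to 314, with 2 of 5 lower and 1 higher, and mast or basophil markers to 21.2 to 25.2 and 23.3 to 24.6, with 1 of 2 higher. Among the higher markers, Marco (4.27 in WT, 6.18 in KO) and Hoxa9 (4.81 and 8.23) passed the filter at a mean of 5 only through their KO libraries. The part of the marker scores in the lower scores of the iron genes was not tested.

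The zero point of these comparisons depends on scaling. Over all nuclei 67.1% of calls were higher in KO. The share was 46.9% under quantile normalization, 54.0% under cyclic loess and 35.4% under median centring. The median of all genes moved from 0.096 to -0.018, -0.0033 and -0.050. The balance of calls depends on the filter too. With a filter at a mean of 20, which all 10 iron genes passed, 1899 of 10362 genes were higher and 2345 lower in all nuclei. There 44.7% of calls were higher, the median was -0.037, and 6 of the 10 iron genes were still called. In Int nuclei the share of calls higher in KO was 64.2%, with 50.7% under quantile normalization, 57.5% under cyclic loess and 24.4% under median centring. In Late nuclei it was 64.0%, with 46.5%, 52.5% and 47.9% under the same 3 alternatives. Tfrc, Steap3 and Slc40a1 kept their direction and call in all nuclei under all 18 alternatives run, and Tfrc, Steap3, Slc25a37, Slc25a38 and Slc40a1 did so in Late nuclei under all 17. With fragment-weighted means 3 of the 10 genes passed the test in all nuclei, as did 12.8% of all genes, and in Int nuclei the count was 3 without KO replicate 2, beside 14.4% of all genes, when Tfrc (-0.16, adjusted p = 0.0597) and Slc25a38 (-0.15, 0.0895) no longer passed. Without a variance trend Steap3 alone passed in Int nuclei, the adjusted p being 0.116 for Tfrc, 0.107 for Slc25a38, 0.0946 for Slc11a2 and 0.0537 for Slc40a1, and under cyclic loess Tfrc (0.0526) and Slc25a38 (0.0905) did not pass.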

How the data were processed

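The deposited table holds a gene score for 24333 genes in 34073 nuclei of 6 ATAC libraries (10x multiome, Ter119+ erythroblasts). The signal had been scaled by the authors so that every nucleus sums to about 10000. The deposited table of nuclei gives the fragment counts per nucleus, the share of fragment ends in peaks, and the authors' other labels of library, class and cluster, and lists each nucleus 2 times; 1 copy was used. That table carries a doublet score per nucleus; no nucleus was left out by it here, and whether doublets were removed before deposit is not given in the sources used here. Cell Ranger and the build mm10 are named per the submitters' processing notes; the weighting of fragments by distance is not given in the sources used here. Neighbouring genes share fragments.

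The mean score of each gene in each library was rescaled so that a library sums to 1000000, and log2(score + 1) was compared with limma 3.58.1 in R 4.3.3 (eBayes with trend, two-sided), on genes with a mean of at least 5. P-values were adjusted by Benjamini-Hochberg over all genes, with a threshold of 0.05. Fold changes on this scale understate those of low genes. The mean for the filter was taken over both groups, so a gene below it in either group could pass through the other. The direct test of class and genotype used the Late minus Int difference within each library. The procedure was tested on simulated data. Tables were made in Python 3.11.15 (numpy 2.4.6, pandas 2.3.3) and drawn with matplotlib 3.10.9.

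Named were all 10 genes, the highest and lowest called gene of each pathway list whose libraries did not overlap, and for each of the 10 the neighbour within 100 kb with the largest change; other genes named (among them Alas2, Gm5475 and 3110009E18Rik) were chosen after their values were seen, and 1 gene among those that followed an iron gene most closely is not reported here. The 10 genes, the pathway lists and the marker lists were chosen with earlier results of these data known. Alternatives covered the pseudocount, filter, scaling, variance trend, replicate block, single libraries, the weighting and depth of nuclei, and cluster C5. Alternatives for the pathway count were chosen after seeing the data. Of the library columns, 0 could not be matched to a sample.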

Additional observations from a re-analysis of the deposited data

Results flagged for a closer look

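The Late minus Int difference of Slc25a37, the mitoferrin-1 gene, was above 0 in all 3 WT libraries and below 0 in all 3 KO libraries, and the KO value minus the WT value was -0.58 on the log2 scale (limma adjusted p = 0.060, n = 3 libraries each). The same opposite signs held for Tfrc, the transferrin receptor gene, with a difference of -0.16 (limma adjusted p = 0.190). Neither difference passed the threshold over all genes.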

How the results depend on the processing

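With 3 libraries a group, differences of about 0.1 on the log2 scale were near the limit of the test, and class comparisons rest on shallower Late than Int nuclei. The share of all genes past the threshold is given with each count of iron genes. The count was 6 in all nuclei (43.3%), 4 under quantile normalization (30.8%) and under cyclic loess (29.6%), and 3 with fragment-weighted means (12.8%). It was 5 to 6 when single libraries were left out (30.7% to 47.6%). In Int nuclei it was 5 (19.8%), and 3 under cyclic loess (20%), 1 with no variance trend (9.87%), 0 in cluster C5 alone (0.879%) and 3 to 5 without single libraries (13.2% to 24.5%). In Late nuclei it was 5 (51.4%), and 8 under median centring (54.1%) or within 5000 to 15000 fragments (51.3%). Under quantile normalization (37.8%) and cyclic loess (37.3%) it was 6 there, Hmox1 being called as higher in KO. The count of iron genes passing the direct test between classes was 0 (0.158%). It was 1 (Slc25a37) under a pseudocount of 5 (0.642%), a filter at 20 (2.78%), median centring (4.07%), no variance trend (2.42%) and fragment-weighted means (0.418%). Without single libraries it was 0 to 1 (0% to 3.55%). In the fits where Slc25a37 passed, the share of all genes passing was thus higher too. The 43 called pathway genes became 28 under cyclic loess (29.6% of all genes), 15 with fragment-weighted means (12.8%), 56 under median centring (48.2%) and 29 to 44 without single libraries. The cause of these shifts was not tested.

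Changes of sign were seen only where the reported value had not passed the test or had none. Under cyclic loess these were, in all nuclei, Ftl1 (0.0017), Fth1 (0.0060) and Slc25a28 (0.027), in Int nuclei Ftl1 (0.022), Slc25a28 (0.035) and Fth1 (0.049), in Late nuclei Slc25a28 (0.012), and for Late minus Int Steap3 (0.028). Under quantile normalization they were, in all nuclei, Fth1 (0.0045) and Slc25a28 (0.015), in Int nuclei Ftl1 (0.014), Slc25a28 (0.016) and Fth1 (0.035), in Late nuclei Ftl1 (0.0036) and Slc25a28 (0.015), and for Late minus Int Steap3 (0.031). Under median centring Hmox1 was -0.10 in all and -0.13 in Int nuclei. In cluster C5 alone Slc25a28 was 0.0077, Ftl1 0.074 and Slc25a37 0.25. For Late minus Int, fragment-weighted means gave Hmox1 -0.0040, Steap3 0.012 and Ftl1 0.017, and a pseudocount of 5 gave Steap3 0.0035. Within 5000 to 15000 fragments Slc25a28 was 0.049 in Int nuclei, Steap3 was 0.088 and Slc25a38 0.088 for Late minus Int, and in KO the Late minus Int values of Fth1, Slc11a2 and Slc25a28 were -0.014, -0.061 and -0.062. Without single libraries the Late minus Int differences ranged from -0.027 to 0.071 for Hmox1, -0.033 to 0.029 for Steap3, -0.031 to 0.013 for Ftl1, -0.042 to 0.027 for Slc25a28 and -0.055 to 0.0030 for Slc25a38, and Slc25a28 in Int nuclei from -0.064 to 0.0064.

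Replicate numbers were not taken to pair the libraries, since the correlations of same-numbered libraries were not all above 0.1: they were -0.12, -0.27 and 0.21 over all nuclei and 0.13, -0.084 and 0.19 in Int nuclei. In Late nuclei they were 0.087, 0.045 and 0.051, where every library correlated best with its own number, a hint from the data and not the design. With the replicate number as a block the counts stayed at 6 (42.2% of all genes), 5 (23.3%), 5 (50.2%) and 0 (0.062%). The Slc25a37 difference between classes then had a limma adjusted p of 0.10.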

Other observations

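In Late nuclei the highest called genes of 3 pathway lists were Slc39a14, a zinc and iron transporter, from 5.41 ± 0.638 to 11.2 ± 3.56 (SD, n = 3; log2 fold change 0.90, limma adjusted p = 0.000469), Hif1a, from 6.41 ± 0.965 to 11.5 ± 1.74 (0.75, adjusted p = 0.000306), and Fdxr, a mitochondrial reductase, from 80.8 ± 5.70 to 120.4 ± 4.91 (0.57, adjusted p = 2.43e-06). Cpox, an enzyme of the later steps of heme synthesis, was the lowest of its list, from 29.7 ± 4.19 to 24.3 ± 0.906 (-0.27, adjusted p = 0.0221).

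The genes whose scores followed an iron gene most closely over the 12 points of 6 libraries in 2 classes, leaving out genes within 500 kb, are given by Pearson r as a description, since the points share libraries, depth and class. Slc25a37 was followed less closely, with Mcm10 at 0.88, 4921524L21Rik at 0.87 and Tmem136 at 0.87. Tfrc was followed by Nudt4, Gm8884 and Mir3058, all at 0.98, and Steap3 by Mkln1os, Abcg4 and Notch2, all at 0.99. Slc40a1 was nearest to Sgpp1, Slc25a21 and Svil (0.97 to 0.98), and Slc25a38 to Slc5a2 and BC017158 (both 0.99). Slc11a2 was nearest to Uap1, at 0.98, then Rasa1 and Smg1, at 0.94 and 0.93. Slc25a28 went with Tob1, Cdca2 and Rnf138 (0.97 to 0.98), Hmox1 with Mgea5, Borcs8 and Ccdc130 (0.99), Ftl1 with Ubap2l, Gm9895 and Mxd1 (0.99 to 0.995) and Fth1 with 2610206C17Rik, F730043M19Rik and Atp6ap1 (0.93 to 0.94).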
